A study of Mus musculus with 7 samples.

Results

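The non-immune cells of the mouse pancreas were compared between wild-type (WT) and i4F mice, and the question was which cell classes made up the captured tissue after a week of induced reprogramming. A cell was counted as non-immune unless its deposited cluster name began with macrophages, NK, B lymphocytes or follicular B cells. This left 24362 of the 36296 cells of the WT and i4F mice, out of 58473 cells in the series. Their cluster names fell into 8 classes. Acinar, ductal, endocrine, stellate and endothelial cells were named in both genotypes, Lymph_nodes and Mesothelium in WT mice alone, and Smooth_muscle in i4F mice alone.

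Single-cell RNA was measured in 2 WT and 3 i4F mice, all C57BL/6 and 2 months old, with 1 library per mouse. i4F mice carry, each on 1 allele, the reprogramming factors Oct4, Sox2, Klf4 and c-Myc under doxycycline control at the Pparg locus, and the reverse tetracycline transactivator (rtTA) at Rosa26, a locus that is active in most cell types, so that induction was not directed to a chosen class. WT and i4F mice alike had doxycycline (1 mg/ml, with 7.5% sucrose) in their water for 7 days, so that the drug itself did not differ between the groups. The labels do not say whether WT mice carry rtTA. Pancreata were digested with collagenase, dispase and trypsin, red blood cells were lysed, and single cells were captured with the 10x Genomics 3′ assay, which counts mRNA molecules by a random tag on each, the unique molecular identifier (UMI).

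Acinar cells form most of the pancreas and make its digestive enzymes, and ductal cells line the tubes that carry these to the gut. Endocrine cells of the islets release hormones into blood supplied by a dense capillary bed of endothelial cells. Stellate cells are fibroblast-like cells around the acini that store vitamin A at rest and, once activated, divide and lay down collagen, while pericytes and smooth muscle cells wrap the vessels and mesothelial cells cover the organ. Acinar cells are easily broken by enzymatic digestion. Shares of captured cells therefore describe what survived dissociation, and fewer cells of a class in the tissue cannot be told apart from fewer cells recovered.

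The libraries differed in size and depth. They held between 4104 and 5645 non-immune cells and between 10292402 and 49074121 UMIs in these cells. The median was 2574.5 and 2915 UMIs per cell in the WT mice against 8833, 6280 and 1295.5 in the i4F mice. The library labelled i4F 3 stood apart from the other i4F libraries, with 47.4% of its non-immune cells under 500 genes beside 12.8% and 18.1%. Its rtTA level matched its label: rtTA was at 43.5, 49.4 and 51.1 CPM (UMI counts scaled to a fixed library total) in the 3 i4F mice and at 0.951 and 0.162 CPM in the WT mice. Pou5f1, which encodes Oct4, had 134 and 254 UMIs in i4F 1 and 2 but 0 in i4F 3, beside 16 and 3 in the WT mice. Values without i4F 3 are therefore given beside the results that it moved most. Any pair of libraries shared between 3 and 23 cell barcodes. Scrublet set its automatic threshold so high in WT 1 and i4F 3 that it marked 2 of 4327 and 0 of 7614 cells, and doublets were kept. By its name in the labels, the library of WT 2 belongs to a different series from those of WT 1 and the i4F mice, and what a series stands for is not stated.

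The share of captured non-immune cells held by ductal, endocrine and endothelial cells was lower in every i4F mouse than in both WT mice, but for ductal and endocrine cells this did not hold with every denominator. Endothelial and endocrine cells each had a mean 0.406-fold that of WT, and the gap in points was widest for endothelial cells. The shares of acinar and stellate cells overlapped between the genotypes, and in both i4F 3 stood apart from the other i4F mice. With 2 mice against 3 the exact permutation test has 10 arrangements and cannot give a p below 0.2, so none of these differences can pass 0.05 in it.

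Endothelial cells, which line the vessels, made up 27.3% and 21.7% of non-immune cells in the WT mice against 5.51%, 10.5% and 13.9% in the i4F mice. The highest i4F mouse thus stayed well under the lowest WT mouse. The means were 24.5% ± 3.97 (SD, n = 2) and 9.97% ± 4.21 (SD, n = 3), a difference of -14.6 percentage points (exact two-sided permutation test, p = 0.2, adjusted p = 0.333 by Benjamini-Hochberg over the 5 classes). The gap was -16.5 points without i4F 3 and -17.4 points against WT 1 alone, the WT library of the same name series. Among non-acinar cells the separation was narrow, with 26.0% in WT 2 and 25% in i4F 3.

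Endocrine cells were the rarest class named in both genotypes, with 2.44% and 3.21% in WT mice against 0.673%, 0.777% and 1.99% in i4F mice. All i4F mice lay below, and i4F 3 was the nearest to WT. The means of 2.82% ± 0.545 (SD, n = 2) and 1.15% ± 0.730 (SD, n = 3) differed by -1.68 points (p = 0.2, adjusted p = 0.333, same exact permutation test). Among non-acinar cells the genotypes overlapped, with 3.08% and 3.84% in WT mice against 0.752%, 0.959% and 3.58% in i4F mice. These shares rest on 100 and 179 cells in WT and on 38, 33 and 95 cells in i4F mice. A count by hormone RNA gave the same order: cells with at least 5% of their UMIs on hormone genes (4 of 7 are listed in the tables) were 1.78% and 2.42% of non-immune cells in WT against 0.407%, 0.447% and 1.38% in i4F mice. This count is not independent of the names, since all but 3 of 135 cells in WT 2 and all in the other mice were named endocrine. The cutoff kept 73.0% and 73.7% of the named endocrine cells in WT against 60.5%, 57.6% and 69.5% in i4F mice.

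Ductal cells accounted for 18.3% and 11.1% in WT mice against 4.22%, 4.97% and 11% in i4F mice. The separation was narrow, since the exact 95% intervals of WT 2 (10.3% to 12%) and i4F 3 (10.1% to 11.9%) overlapped almost completely. The means were 14.7% ± 5.10 (SD, n = 2) and 6.73% ± 3.73 (SD, n = 3), with a difference of -8.01 points in all mice (p = 0.2, adjusted p = 0.333, exact permutation test) and of -10.1 points without i4F 3. Against WT 1 alone it was -11.6 points. The genotypes overlapped among non-acinar cells, where ductal cells held 23.2% and 13.3% in WT mice against 4.71%, 6.13% and 19.9% in i4F mice, and also among cells of at least 500 genes and after automatic doublet removal.

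Stellate cells were 27.7% and 44.9% in the WT mice against 77.8%, 63.1% and 26.8% in the i4F mice. In i4F 1 and i4F 2 they were the majority, and in i4F 3 they were as rare as in the lower WT mouse. The mean difference of +19.6 points had p = 0.6 in the exact permutation test (adjusted p = 0.75, means 36.3% ± 12.2, SD, n = 2, and 55.9% ± 26.3, SD, n = 3). Without i4F 3 the difference was 34.1 points.

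Acinar cells held 20.8% and 16.4% in WT mice against 10.5%, 19.0% and 44.5% in i4F mice. Among all non-immune cells i4F 3 alone set the sign: the mean difference was +6.07 points with it (p = 1, exact permutation test, means 18.6% ± 3.08, SD, n = 2, and 24.7% ± 17.7, SD, n = 3) and -3.85 points without it. With stellate cells left out of the denominator, a choice made after seeing the data, the acinar share was higher in every i4F mouse than in both WT mice. The exact (Clopper-Pearson) 95% intervals of all classes spanned at most 2.92 points and cover counting error only. They overlapped between WT 2 and i4F 3 for ductal cells and between WT 1 (1.99% to 2.96%) and i4F 3 (1.61% to 2.42%) for endocrine cells, but not between any WT and i4F mouse for endothelial cells.

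**Figure D1:**
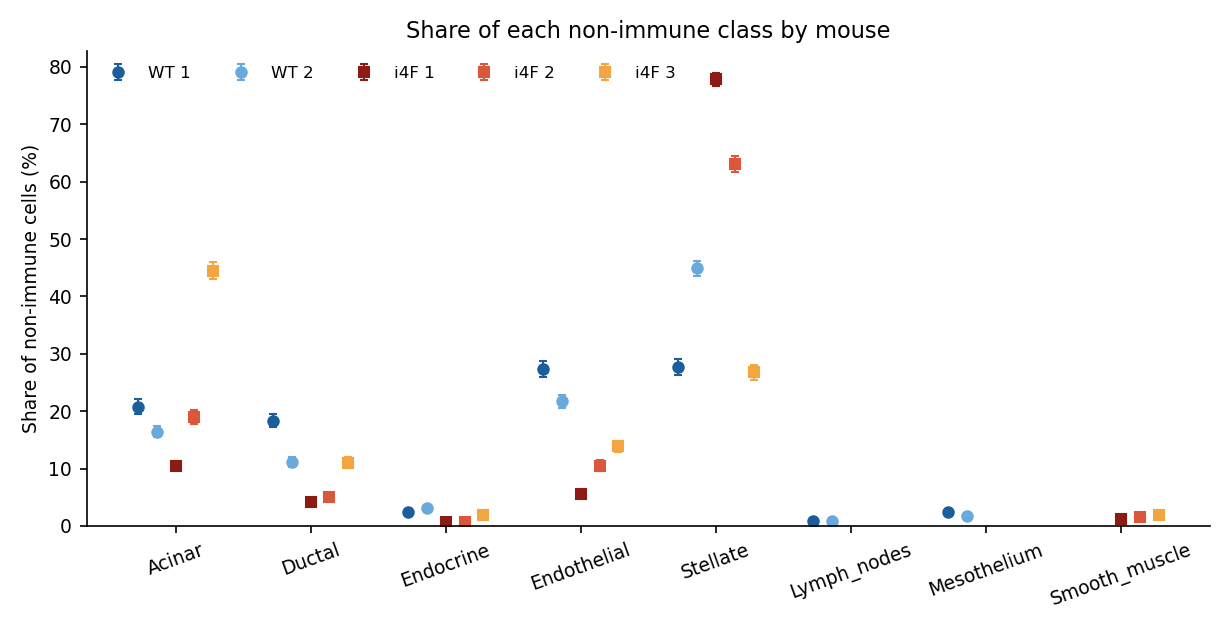
Share of each class among non-immune cells (y axis, percent), 1 symbol per mouse, with circles for WT and squares for i4F mice and bars for exact 95% binomial intervals, which cover counting error only. All i4F squares lie below the WT circles for ductal, endocrine and endothelial cells, and i4F 3 stands apart from i4F 1 and 2 for acinar (44.5% against 10.5% and 19.0%) and stellate cells (26.8% against 77.8% and 63.1%).

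Among all captured cells, immune cells included, the same 3 classes were lower in i4F mice, and the sign of the other 2 changed. Stellate cells were 26.3% and 39.6% of all cells in WT against 44.8%, 32.6% and 16.8% in i4F mice, a mean difference of -1.56 points. Acinar cells were 19.7% and 14.5% against 6.05%, 9.82% and 28.0%, a mean difference of -2.49 points. Immune cells were not evenly spread over the mice, so this denominator moved every non-immune class of the i4F mice down together.

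Shares sum to the whole, so that many cells of 1 class lower all others. Ratios of cell numbers between 2 classes do not depend on the rest and were taken for the 6 pairs of acinar, ductal, stellate and endothelial cells. Cells named acinar were more numerous relative to ductal and to endothelial cells in all 3 i4F mice, whereas the ratio of ductal to endothelial cells interleaved between the genotypes. In i4F 1 and 2 most cells named acinar had the deposited name Acinar_2, whose leading genes were mostly squamous, as given below. Most acinar cells of these mice still joined acinar clusters when the genotypes were clustered together.

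The log2 ratio of acinar to ductal cells was 0.18 and 0.56 in WT mice against 1.32, 1.94 and 2.01 in i4F mice. The groups did not overlap, and here i4F 3 sat next to i4F 2. The mean was 0.37 ± 0.27 (SD, n = 2) in WT against 1.76 ± 0.38 (SD, n = 3) in i4F mice, a 2.61-fold higher ratio (exact permutation test, p = 0.2, adjusted p = 0.6 over the 6 pairs). The log2 ratio of acinar to endothelial cells was -0.40 in both WT mice and 0.93, 0.85 and 1.68 in i4F mice, a 2.94-fold higher ratio (p = 0.2, adjusted p = 0.6, exact permutation test). Without i4F 3 both stayed apart, with log2 differences of 1.26 and 1.29, and against WT 1 alone the differences were 1.58 and 1.55.

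The log2 ratio of ductal to endothelial cells was -0.58 and -0.97 in WT against -0.39, -1.08 and -0.33 in i4F mice. The values interleaved, with a difference of 0.17 (exact permutation test, p = 0.6, adjusted p = 0.72). Stellate to endothelial ratios were 0.02 and 1.05 in WT mice against 3.82, 2.58 and 0.95 in i4F mice, with i4F 3 just below WT 2 (difference 1.92, exact permutation test, p = 0.4, adjusted p = 0.6, and 2.67 without i4F 3). The 2 other pairs with stellate cells overlapped as well. Acinar to stellate differed by -0.36 (p = 0.8) and ductal to stellate by -1.75 (p = 0.4, both exact permutation tests), and without i4F 3 by -1.38 and -2.63.

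**Figure D2:**
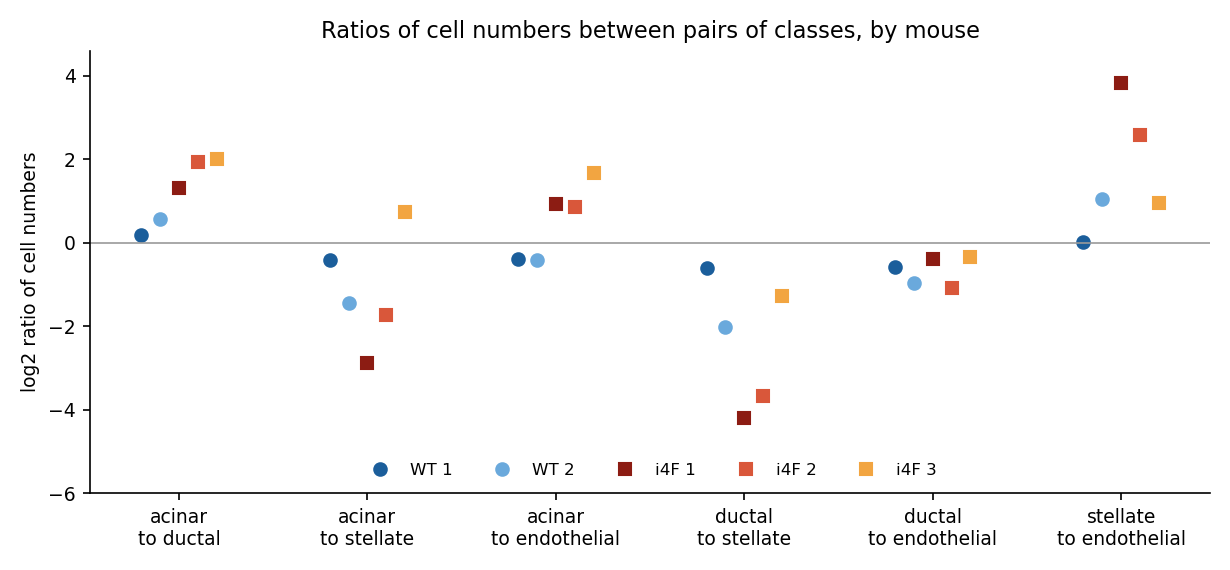
log2 ratio of cell numbers (y axis) for 6 pairs of classes, 1 symbol per mouse, with circles for WT and squares for i4F mice. The i4F squares lie above both WT circles for acinar to ductal and acinar to endothelial cells, interleave with them for ductal to endothelial cells, and spread from -2.89 to 0.74 for acinar to stellate cells.

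UMIs per cell moved in opposite directions in the epithelial classes. Acinar cells held more UMIs per cell in every i4F mouse than in both WT mice, whereas ductal and endocrine cells held fewer. Stellate and endothelial cells overlapped. The median UMIs per acinar cell were 431 and 502 in WT mice against 1933, 2020 and 606 in i4F mice. Acinar cells of i4F 1 and 2 were far deeper than those of WT mice, and those of i4F 3 only slightly. In i4F 1 and 2 most of these cells were named Acinar_2 (medians 1944 and 2092.5), whose leading genes were mostly squamous, as given below. When the genotypes were clustered together (resolution 0.5, below), 64.0% and 71.4% of the acinar cells of i4F 1 and 2 joined acinar clusters. Another 31.8% and 27.1% stayed unnamed. The acinar cluster led by Reg3g, with 378 and 501 cells of these mice, had a median of 2129 UMIs. The unnamed cluster led by squamous genes had a median of 410 UMIs. Genes per acinar cell, not thinned to a common depth, had medians of 250 and 255 in WT mice against 523, 521 and 243 in i4F mice, with i4F 3 below both WT mice. For UMIs the log2 difference was 1.52, or 2.86-fold, and 2.09 without i4F 3 (exact permutation test, p = 0.2, adjusted p = 0.333 over the 5 classes).

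Ductal cells had medians of 5396 and 4624 UMIs in WT mice against 4187, 2667 and 2672 in i4F mice. In endocrine cells the medians were 7706.5 and 6049 against 3084, 2928 and 3393. Every i4F median lay below both WT medians in these 2 classes, even in i4F 1 and 2, whose medians over all non-immune cells were the highest. The log2 differences were -0.69 for ductal and -1.13 for endocrine cells, each with p = 0.2 and adjusted p = 0.333 (exact permutation test). Ductal and endocrine medians were above those of acinar cells in all 5 mice, most narrowly in i4F 2.

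Stellate cells had medians of 4700 and 3605 UMIs in WT mice against 9918, 8942 and 2554.5 in i4F mice. i4F 3 was again the lowest of all (log2 difference 0.57, p = 0.6, exact permutation test, and 1.19 without i4F 3). Endothelial medians were 601 and 1483 in WT against 774, 821 and 797 in i4F mice (log2 difference -0.24, p = 0.8, exact permutation test). The WT mice differed more from each other than the genotypes did, and against WT 1 alone the sign turned, to 0.41.

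UMIs per cell differed between libraries, so each class was also set against the median of all non-immune cells of its own library. On this scale acinar cells were still higher in all 3 i4F mice (log2 difference 0.92, exact permutation test, p = 0.2), while ductal (-1.29, p = 0.4) and endocrine cells (-1.73, p = 0.4) overlapped between the genotypes. That library median was set by stellate cells in i4F 1 and 2, where they were the majority. Shallow cells were unevenly spread over the classes: cells under 500 genes were 85.2% and 82.9% of acinar cells in WT mice against 48.3%, 48.6% and 79.3% in i4F mice, but at most 8.76% of ductal cells in any mouse. Of endothelial cells they were 55.4% and 27.4% in WT mice against 47.9%, 43.6% and 48.9% in i4F mice.

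**Figure D3:**
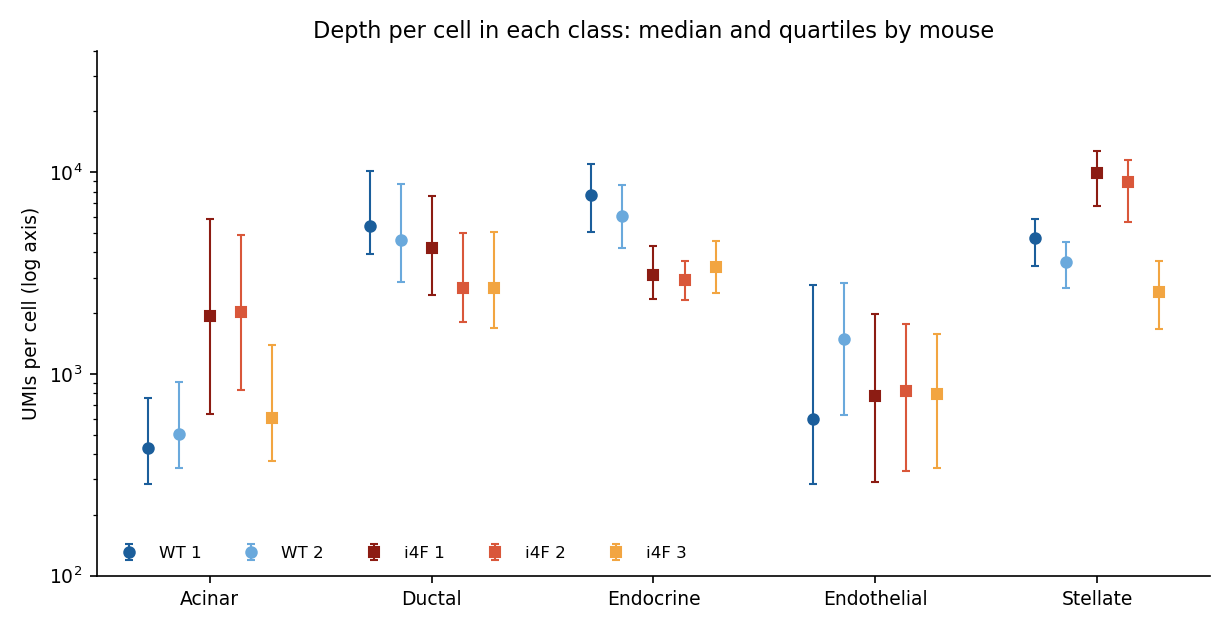
UMIs per cell (y axis, log scale) in each class, with the median as a symbol and the quartiles as bars, circles for WT and squares for i4F mice. Acinar medians of i4F mice lie above, and ductal and endocrine medians below, those of both WT mice, while endothelial medians stay between 601 and 1483 UMIs in all mice.

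Cell number and depth combine in the share of non-immune UMIs that a class holds. Stellate cells held 33.8% and 49.3% in WT mice against 88.3%, 79.1% and 39.3% in i4F mice, so that most of the RNA measured in i4F 1 and 2 came from them. Endothelial cells held 13.3% in both WT mice and 0.898%, 1.96% and 7.47% in i4F mice. Ductal cells went from 37.6% and 22.6% to 2.97%, 2.77% and 20.2%, and endocrine cells from 5.62% and 6.67% to 0.302%, 0.388% and 3.49%. These 3 classes lay below WT in every i4F mouse, with differences of -9.85, -21.5 and -4.75 points. Acinar cells held 4.87% and 4.42% against 7.19%, 15.3% and 28.1%, above WT in every i4F mouse (+12.2 points, and 6.59 points without i4F 3). For each of the 4 non-overlapping classes the exact permutation test gave p = 0.2 and adjusted p = 0.25, and for stellate cells p = 0.4 and adjusted p = 0.4 (+27.3 points, and 42.1 points without i4F 3).

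The names were checked against fixed lists of marker genes, since the authors clustered WT and i4F cells separately and a name need not mean the same cells in both. Levels of a list are the summed UMIs of its genes in percent of the UMIs of the cells named. The acinar list has 43 genes, of which 21 are listed in both count tables. It made up 9.41% and 11% of the UMIs of acinar cells in WT mice against 1.08%, 1.59% and 6.28% in i4F mice. No i4F mouse reached the WT level, and i4F 1 and 2 were far under it.

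In i4F mice the acinar class joins the names Acinar_1 and Acinar_2, which came almost entirely from different mice. Acinar_1 had 11, 61 and 2071 cells in i4F 1, 2 and 3, so that 96.6% of it was 1 mouse. Acinar_2 had 583, 746 and 59 cells. Acinar_1 was led by secretory genes such as Pla2g1b, Pnliprp2, Gp2 and Amy2b, which encode a phospholipase, a lipase-related protein, a zymogen granule protein and amylase. Acinar_2 had none of the acinar list among its 10 leading genes, which were Ly6g6c, Sprr2b, Sprr2a3, Slurp1, 2310046K23Rik, Mal, Fam25c, Krt13, Reg3g and Cnfn. Most of those with a known role belong to stratified squamous epithelium, such as Krt13, a keratin of mucosal surfaces, and the Sprr2 genes of the cornified envelope.

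A list of 17 such squamous genes, made after these values were seen and with 12 listed in both tables, held 0.003% and 0.010% of the UMIs of acinar cells in WT mice against 1.83%, 0.918% and 0.022% in i4F mice. Acinar_2 cells still carried acinar RNA, with 1.08%, 1.51% and 2.10% of their UMIs on the acinar list, against 0.019% to 0.240% in ductal cells of the same mice. The Reg family encodes secreted lectins that acinar cells make after injury. Its listed genes took 10.8% and 0.293% of acinar UMIs in WT 1 and WT 2 and 12.9%, 17.3% and 24.3% in i4F mice. WT 1 was close to i4F 1, and WT 2 far below all others. Reg RNA was also found in classes not known to make it, with 3.21% of endothelial and 1.28% of stellate UMIs in i4F 3 against at most 0.060% and 0.020% in WT mice. Acinar list RNA outside acinar cells was likewise highest in i4F 3, at 0.182% to 0.664% of UMIs over the endocrine, ductal, stellate and endothelial classes, beside 0.073% to 0.291% in WT mice against 0.004% to 0.067% in i4F 1 and 2. The contribution of free RNA to these levels was not tested.

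The stellate names covered different cells in the 2 genotypes. The WT name Activated_Pancreatic_Stellate (114 and 161 cells) was led by Acta2, Tagln, Myh11, Myl9, Rgs5 and Tpm2, the contractile proteins and the pericyte gene of vessel walls. None of the activated stellate list was among its 10 leading genes. Its summed level of the smooth muscle and contractile list was 5.60% and 4.94%, near the 4.19%, 3.08% and 5.29% of the i4F name Smooth_muscle, and its activated stellate list stood at 0.104% and 0.041%. The other stellate names held at most 0.574% of contractile list UMIs.

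The i4F names Activated_Pancreatic_Stellate_1 and _2 again came from different mice. The first had 4249, 2555 and 113 cells and the second 144, 126 and 1167 in i4F 1, 2 and 3. The first was led by matrix genes, among them Col1a1, Col3a1, Timp1, Lox and Tnc, and held 1.29%, 1.27% and 1.41% of its UMIs on the activated stellate list in the 3 mice. The second was led by Clec3b, C3, Gsn and Slpi and held 0.300%, 0.233% and 0.235%. This is within the range of the WT names Quiescent_Pancreatic_Stellate_1 (0.190% and 0.176%) and Quiescent_Pancreatic_Stellate_2 (0.475% and 0.340%). In i4F 1 and 2 the second name also carried mesothelial RNA, at levels given below, so it need not mean resting stellate cells there. By cell number, 97.2% of the acinar cells of i4F 3 were Acinar_1 and 91.2% of its stellate cells were Activated_Pancreatic_Stellate_2. In contrast, i4F 1 and 2 had 98.1% and 92.4% Acinar_2 and 96.7% and 95.3% Activated_Pancreatic_Stellate_1. Median UMIs per cell in i4F 1, 2 and 3 were 10057, 9137 and 8729 in Activated_Pancreatic_Stellate_1, and 1944, 2092.5 and 2014 in Acinar_2. They were 3887.5, 2741.5 and 2461 in Activated_Pancreatic_Stellate_2, and 1173, 1017 and 596 in Acinar_1. Part of the low medians of i4F 3 thus went with the names it held.

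**Figure D4:**
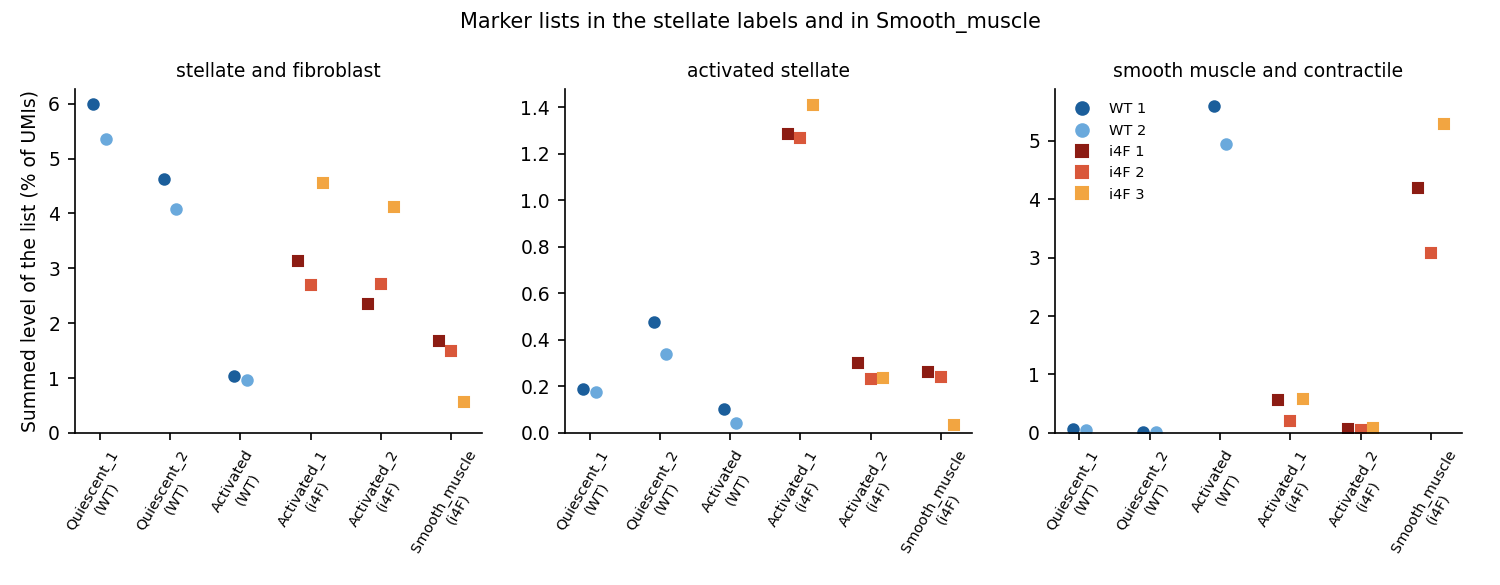
Summed level (y axis, percent of UMIs) of 3 marker lists in each stellate name and in Smooth_muscle, 1 symbol per mouse, with circles for WT and squares for i4F mice. The contractile list is high in the WT name Activated and in the i4F name Smooth_muscle (3.08% to 5.60%) and at most 0.574% in the other names, and the activated stellate list is highest in Activated_1 of i4F mice (1.27% to 1.41%).

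The name Lymph_nodes was given to 38 and 50 WT cells and to none in i4F mice, whose cells were named separately. Its leading genes were those of lymphatic vessels and not of lymphocytes, among them Ccl21a, Lyve1, Reln and Flt4, and the lymphatic endothelial list held 4.77% and 5.06% of its UMIs. Mesothelium (100 and 94 WT cells) was led by Upk3b, Msln, Gpm6a and Upk1b, in keeping with its name. Lymphatic and mesothelial RNA was found under other names in i4F mice, as given below, and no test was run on the presence of the names.

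When the contractile WT name was joined to Smooth_muscle and Lymph_nodes to endothelial cells, a choice made after seeing the data, contractile cells were 2.78% and 2.89% of non-immune cells in WT mice against 1.26%, 1.65% and 1.84% in i4F mice. They were lower in every i4F mouse. Endothelial cells then held 28.3% and 22.6% against 5.51%, 10.5% and 13.9%. Stellate cells held 25% and 42.0% against 77.8%, 63.1% and 26.8%, still with overlap.

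Cells of both genotypes were then clustered together and named by the same fixed markers, which removes the dependence on separate naming. At resolution 0.2, ductal cells were 18.7% and 11.4% of non-immune cells in WT mice against 4.4%, 4.89% and 10.6% in i4F mice. Endocrine cells were 2.43% and 3.16% against 0.638%, 0.756% and 1.95%. Endothelial cells were 28.6% and 23.2% against 3.69%, 7.11% and 8.0%. Pericytes and smooth muscle cells together were 2.82% and 3.10% against 1.29%, 1.65% and 1.87%. All 4 kept every i4F mouse below both WT mice. Acinar cells (20.1% and 15.8% against 6.77%, 13.7% and 40.4%) and stellate cells (27.0% and 43.2% against 73.3%, 59.0% and 22.9%) overlapped as before.

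The joint acinar and stellate names each joined 2 clusters, and since their leading genes differed between the genotypes, their sizes are a description and not a comparison. Of the 2 acinar clusters, 1 held 810 and 884 WT cells and 0, 7 and 3 i4F cells, and the other 14 and 1 against 382, 575 and 1945. The second was led by Reg3b, Reg3g, Reg3a and Reg2. Of the 2 stellate clusters, the one led by Timp1, Tnc, Lox and Col1a1 held 10 and 3 WT cells against 3985, 2374 and 107 i4F cells. The other, led by Clec3b, Gsn and Dcn, held 1098 and 2421 WT cells against 149, 126 and 997. At this resolution the stellate cells of i4F 3 clustered mostly with those of WT mice, and its acinar cells with those of the other i4F mice. At resolution 0.5 its acinar cells stood apart from these too, with 1895 in a cluster that held 4 and 75 cells of i4F 1 and 2, and 62 in one that held 378 and 501. The stellate cluster led by Gsn and Clec3b then held 879 and 1948 WT cells against 1, 6 and 659 i4F cells.

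A further cluster of 1816 cells stayed unnamed, with a median of 334.5 UMIs per cell and the squamous genes Ly6g6c, Sprr2b, Slurp1 and Krt13 in the lead. It held 0.389% and 0.125% of non-immune cells in WT mice against 9.93%, 12.8% and 14.3% in i4F mice. By the deposited names it took in 33.5%, 28.0% and 10.2% of the acinar cells and 34.4%, 31.3% and 41.0% of the endothelial cells of the i4F mice, and 5.65%, 6.30% and 12.5% of their stellate cells. The joint acinar, endothelial and stellate shares of i4F mice leave these cells out. For i4F 3 this rested on the resolution, since at 0.5 the unnamed clusters held 1.13% of its acinar and 2.26% of its endothelial cells. The cluster led by the squamous genes then held 56 cells of i4F 3, against 691 at 0.2.

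At resolution 0.5 lymphatic cells formed a cluster of their own in both genotypes. Lymphatic-like cells were 0.803% and 0.748% of non-immune cells in WT mice against 0.180%, 0.191% and 0.451% in i4F mice. A cluster with mesothelial markers held 5.50% and 8.79% against 2.72%, 2.96% and 6.64%, which overlapped, but most of its WT cells carried stellate names (135 and 383 cells, beside 82 and 87 named Mesothelium). In i4F 1, 2 and 3, where no cell was named Mesothelium, 149 of 151, 122 of 124 and 322 of 324 of its cells carried stellate names. The stellate class compared here thus holds these cells. At this resolution the endothelial share of i4F 3 was 20.5%, close to the 22.4% of WT 2, since a cluster of 819 of its cells, with a median of 373 UMIs, was named endothelial. That cluster was mixed: of its 855 cells 450 had the deposited endothelial name, 212 were named acinar and 154 stellate. The other i4F mice stayed at 3.75% and 7.33%.

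**Figure D5:**
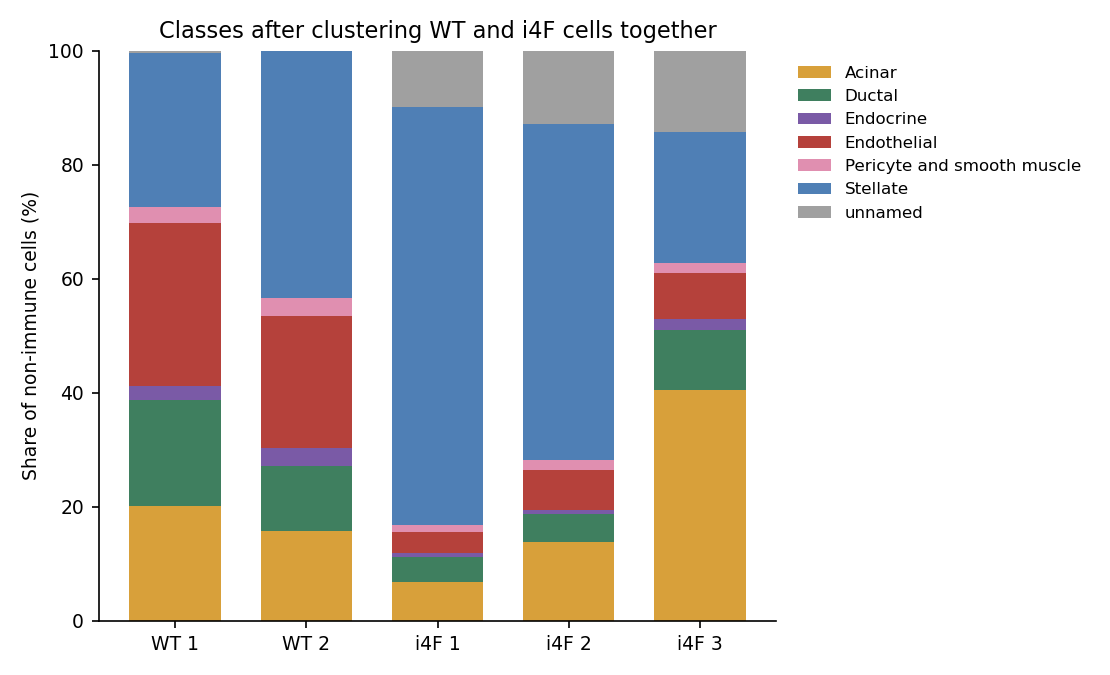
Stacked shares of non-immune cells (y axis, percent) per mouse after WT and i4F cells were clustered together at resolution 0.2 and named by the same markers. Endothelial, ductal and endocrine segments are smaller in every i4F mouse, the stellate segment is the largest in i4F 1 and 2 (73.3% and 59.0%), the acinar segment in i4F 3 (40.4%), and the unnamed segment reaches 14.3% in i4F mice against at most 0.389% in WT mice.

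Genes were then tested within each class, on UMIs summed per mouse, to see what differed inside the classes whose numbers are given above. Changes and adjusted p-values are from the edgeR quasi-likelihood test with Benjamini-Hochberg adjustment over all genes tested in the class, and n was 2 WT and 3 i4F mice. The log2 changes carry an approximate standard error (SE), taken as the size of the change over the square root of the F of that test. The stellate class had by far the most calls. Of 14818 genes, 1775 rose and 1271 fell (20.6% called, 12% up and 8.58% down). Acinar cells had 4 genes up and 5 down of 11134 (0.0808% called, 0.0359% up and 0.0449% down), endothelial cells 57 up and 9 down of 8153 (0.81% called, 0.699% up and 0.11% down), endocrine cells 21 up and 4 down of 3437 (0.727% called, 0.611% up and 0.116% down), and ductal cells 1 up of 11619 (0.00861%). Leaving out either WT mouse left 11 or 16 calls in stellate cells, and no call was left in acinar cells without WT 1, WT 2, i4F 1 or i4F 2. Without i4F 3 the calls were many more, with 7672 in stellate, 3629 in acinar, 2966 in ductal, 1223 in endothelial and 184 in endocrine cells, and with the 5 WT and i4F libraries alone there were 110 in stellate cells.

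In stellate cells, the 12 cell cycle genes all rose, beside 12% of all genes. Their median log2 change was 6.71, beside 0.02 over all genes tested. Ube2c, which drives the exit from mitosis, was at 0.657 and 0.429 CPM in WT mice against 240, 180 and 42.8 CPM in i4F mice. The i4F mice were all above, with i4F 3 the lowest (log2 change 8.18, SE 0.97, adjusted p = 0.013). Tyms, needed for making thymidine, had 24.1 and 16.5 CPM against 204, 212 and 74.3 CPM (log2 change 3.01, SE 0.50, adjusted p = 0.019). Birc5, the mitotic survival gene survivin, had 1.81 and 0.966 CPM against 214, 192 and 35.5 CPM (log2 change 6.78, SE 0.96, adjusted p = 0.017). Genes near 0 in WT mice, such as Ube2c and Birc5, pass the filter on low counts through other groups, so the count is a description. It was 3 of 12 when only the WT and i4F libraries were fitted (110 calls in all), and 0 of 12 without WT 1, WT 2 or i4F 2, where 11, 16 and 27 genes were called in all.

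Of the 14 activated stellate genes, 7 rose and none fell, beside 12% of all genes up and 8.58% down. Their median log2 change was 2.16, with every i4F mouse above both WT mice for 10 of 14 against 28.1% of all genes. Timp1, an inhibitor of matrix-degrading enzymes, stood at 163 and 106 CPM in WT mice against 8862, 9344 and 2959 CPM in i4F mice. All 3 i4F mice were far above WT (log2 change 5.71, SE 0.66, adjusted p = 0.011). Lox, which cross-links collagen, rose by 2.35 (SE 0.49, adjusted p = 0.026), and Postn, a matrix protein of activated fibroblasts, by 1.98 (SE 0.41, adjusted p = 0.026). Col1a1 and Col3a1, the main fibrillar collagens, did not pass (log2 changes 1.23 and 0.88, adjusted p = 0.076 and 0.082), though all i4F mice were above. Without WT 1 or WT 2 none of the 14 was called.

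Of the 18 stellate and fibroblast genes 1 fell, beside 8.58% of all genes. Their median log2 change was -0.70, with every i4F mouse below for 9 of 18, against 26.7% of all genes. Dcn, the proteoglycan decorin, had 21977 and 23565 CPM in WT against 1680, 2102 and 16868 CPM in i4F mice. i4F 3 was close to WT, and the change did not pass (log2 -1.73, SE 0.93, adjusted p = 0.203). Of the 12 pericyte and quiescent stellate genes 5 fell (median -2.55), beside 8.58% of all genes, and with the contractile WT name set apart 2 fell and 1 rose (median -1.06). Those called as named include Ndufa4l2, a mitochondrial protein gene of pericytes, with 251 and 272 CPM against 32.5, 33.0 and 78.8 CPM (log2 change -2.46, SE 0.40, adjusted p = 0.018).

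The fall of contractile genes in the stellate class followed the names. Myh11, the smooth muscle myosin heavy chain, had 194 and 118 CPM in WT against 2.28, 0.609 and 9.19 CPM in i4F stellate cells (log2 change -5.59, SE 0.94, adjusted p = 0.020), but with the contractile WT name set apart the change was 1.49. Rgs5 went the same way, from -5.48 (adjusted p = 0.029) to 1.06. Over the 8 contractile genes the median turned from -0.18 with 2 called down to 3.37 with 4 called up. Pcp4l1 (42.9 and 37.2 CPM against 0.072, 0.130 and 0 CPM) and Pln, the calcium pump inhibitor phospholamban (17.1 and 17.3 CPM against 0.024, 0.087 and 0 CPM), were near 0 in i4F stellate cells and were not among the genes tested once that name was set apart. In that fit 12 of the 12 cell cycle genes and 7 of the 14 activated stellate genes were called up, and 1 of the latter down, beside 11.8% of all genes up and 7.86% down.

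RNA of the immune list was higher in the stellate cells of every i4F mouse. That of the mesothelial list was higher in Activated_Pancreatic_Stellate_2 than in the quiescent WT names. The 18 genes of the immune list made up 0.003% and 0.008% of stellate UMIs in WT against 0.055%, 0.046% and 0.097% in i4F mice. S100a9, the neutrophil calprotectin subunit, was at 0 in both WT mice and at 16.1, 21.0 and 49.6 CPM in i4F stellate cells. Such genes pass the filter on low counts through the groups where they are high, so their calls are not counted here. The mesothelial list held 0.313%, 0.363% and 0.044% of UMIs in Activated_Pancreatic_Stellate_2 of the i4F mice, beside 0.445% and 0.420% in WT Mesothelium and at most 0.014% in the quiescent WT names.

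In acinar cells, 15 of the 21 acinar genes tested were lower in every i4F mouse than in both WT mice, against 18.1% of all genes. Of the 21, 1 was called lower, beside 0.0449% of all genes (median log2 change -2.10, beside 0.14 over all genes). Pla2g1b, a secreted phospholipase, had 25350 and 41520 CPM in WT against 324, 1319 and 18955 CPM in i4F mice (log2 change -2.28, SE 1.36, adjusted p = 0.316). Amy2b, a pancreatic amylase, had 6888 and 4363 CPM against 116, 402 and 3422 CPM (log2 change -2.10, SE 1.12, adjusted p = 0.27). In both, i4F 3 lay nearest to WT and the other i4F mice far below. Amylase and Reg genes have close copies, among which reads may be divided unevenly. Aqp8, the water channel of acinar cells, was the gene that fell, with 51.7 and 49.6 CPM against 1.61, 2.40 and 5.50 CPM (log2 change -4.10, SE 0.50, adjusted p = 0.045). Without i4F 3, 20 of the 21 were called lower, with a median of -3.98, beside 15.4% of all genes.

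Reg2 and Reg3b, the most abundant Reg genes, did not pass in acinar cells. Reg3b had 66047 and 545 CPM in WT against 66756, 82670 and 133948 CPM in i4F mice (log2 change 1.5, SE 1.41, adjusted p = 0.52). The genes with the largest rises were Nccrp1, which is found in squamous epithelium, Sfn, a 14-3-3 protein of keratinocytes, and Gsta4, a glutathione transferase. Nccrp1 (1.52 and 4.37 CPM) and Gsta4 (1.52 and 5.83 CPM) were near 0 in WT mice. Such genes pass the filter on low counts through other groups, so their calls are a description. Sfn had 42.6 and 20.4 CPM against 1364, 1414 and 557 CPM (log2 change 5.14, SE 0.63, adjusted p = 0.045). Scn7a, a sodium channel of Schwann cells and neurons, fell by 5.02 on the log2 scale (SE 0.61, adjusted p = 0.045). The Schwann list held 0.025% and 0.023% of acinar UMIs in WT mice and at most 0.004% in i4F mice.

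In ductal cells none of the 24 ductal genes passed (median log2 change 0.25), and 1174 genes up and 842 down had an unadjusted p under 0.05, while DESeq2 called 348 up and 25 down. Spp1, the secreted glycoprotein osteopontin, had 20392 and 18951 CPM in WT against 37082, 33942 and 12568 CPM in i4F mice, with i4F 3 below WT (log2 change 0.50, SE 0.42, adjusted p = 0.545). Clu, the chaperone clusterin, had 9455 and 10474 CPM against 32379, 31007 and 10764 CPM (log2 change 1.31, SE 0.45, adjusted p = 0.222). Cldn4, a tight junction protein, had 950 and 735 CPM against 2081, 1849 and 1597 CPM (log2 change 1.13, SE 0.24, adjusted p = 0.19). The gene called was rtTA (0.151 and 0.229 CPM against 66.3, 93.0 and 102 CPM).

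In endocrine cells none of the 18 endocrine genes passed, while 10 were lower in every i4F mouse, against 16.1% of all genes (median log2 change -0.76). The endocrine list made up 20.1% and 20.8% of their UMIs in WT against 8.35%, 9.22% and 17.8% in i4F mice. Iapp, the beta cell hormone amylin, had 135553 and 127665 CPM against 63321, 54671 and 106931 CPM (log2 change -0.81, SE 0.41, adjusted p = 0.434). Sst, somatostatin of delta cells, had 28193 and 21923 CPM against 1132, 3221 and 18574 CPM (log2 change -1.71, SE 0.85, adjusted p = 0.419). In both, i4F 3 was nearest to WT. The calls were partly genes of other cells. Reg3a, Reg3b and Reg3g rose, as did the macrophage genes C1qb, Lyz2 and Tyrobp. Reg3b went from 86.4 and 5.80 CPM to 2069, 1640 and 4093 CPM (log2 change 5.86, SE 1.10, adjusted p = 0.048) and Lyz2 from 1.33 and 10.6 CPM to 289, 1413 and 281 CPM (log2 change 6.56, SE 0.94, adjusted p = 0.018). C1qb was at 0 in both WT mice and at 125, 840 and 65.1 CPM in i4F mice. Genes at or near 0 in WT mice, such as C1qb and Lyz2, pass the filter on low counts through other groups. Their calls are therefore a description. With the cells of highest doublet scores removed, the log2 change of Lyz2 was 6.53 (adjusted p = 0.129), in a fit with 14 calls in all.

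In endothelial cells none of the 20 blood endothelial genes passed, and 10 of 20 were lower in every i4F mouse, against 17.7% of all genes (median log2 change -0.24). The list held 3.73% and 3.93% of their UMIs in WT against 2.48%, 2.59% and 2.96% in i4F mice. Emcn, a sialomucin of capillaries and veins, had 2422 and 2573 CPM against 1337, 1121 and 1356 CPM (log2 change -0.97, SE 0.22, adjusted p = 0.081). Pecam1, the adhesion molecule CD31, had 1515 and 1482 CPM against 896, 1037 and 1197 CPM (log2 change -0.52, SE 0.22, adjusted p = 0.263). Among the 11 activated and venous genes 1 rose, beside 0.699% of all genes. Lrg1, a secreted glycoprotein of inflamed venules, went from 139 and 63.2 CPM to 1994, 2473 and 649 CPM (log2 change 4.08, SE 0.63, adjusted p = 0.034). It was among the 10 leading genes of the WT name Endothelial_2, but also of an acinar cluster of mostly i4F cells at resolution 0.5.

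Lymphatic genes in the endothelial class followed the names as well. Lyve1, the hyaluronan receptor of lymphatic vessels, had 1.35 and 3.35 CPM in WT against 306, 234 and 361 CPM in i4F endothelial cells (log2 change 6.92, SE 0.44, adjusted p = 0.001). With Lymph_nodes joined to the class its change was -0.06, and that of Ccl21a, a chemokine of lymphatic vessels, went from 6.04 to -1.18. Over the 8 lymphatic genes tested, of which 1 was at 0 in all 5 mice, 4 were called up as named, beside 0.699% of all genes. None was called up after joining (median -0.03), beside 0.171% of all genes. Rgs5, the pericyte gene, fell from 137 and 191 CPM to 6.86, 14.1 and 24.3 CPM (log2 change -3.36, SE 0.39, adjusted p = 0.015) and passed with the names joined too, but not without i4F 2 (adjusted p = 0.0665). The immune list held 0.034% and 0.019% of endothelial UMIs in WT mice against 0.142%, 0.124% and 0.105% in i4F mice.

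Pooled over all non-immune cells, marker RNA of blood endothelial and endocrine cells lay below WT in i4F mice, as the cells did, and that of activated stellate cells mostly above. The pool sums the same cells, so it is not independent of the shares of cells and UMIs given above. No gene of 17849 passed (0%) in edgeR, with 3175 up and 2431 down at an unadjusted p under 0.05, and DESeq2 called 2122 up and 988 down. Of the 20 blood endothelial genes 16 were lower in every i4F mouse, and of the 19 endocrine genes tested 15, against 25.3% of all genes. Of the 14 activated stellate genes 10 were higher in every i4F mouse, against 23.1% of all genes. The blood endothelial list held 0.543% and 0.580% of non-immune UMIs in WT against 0.057%, 0.106% and 0.263% in i4F mice. The dissociation and stress list, which marks the handling of cells, held 2.25% and 2.85% in WT against 0.519%, 0.562% and 1.62% in i4F mice, and its part in these differences was not tested.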

How the data were processed

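Pancreata of 2 WT, 3 i4F and 2 caerulein-treated mice were profiled with 10x Genomics 3′ chemistry, and the labels give 1 library per mouse. The deposited values are UMI counts per gene and cell, with the authors' cluster names and the percent of mitochondrial reads per cell. Cell Ranger and mm10 are named in the submitters' processing notes. According to the study's methods, each condition was clustered on its own in Seurat, ambient RNA was treated with SoupX and cells under 150 genes or over 5% mitochondrial reads were removed. Whether the deposited counts precede the SoupX step is not given in the sources used here. The counts were whole numbers and their sums per cell equalled the deposited totals. A gene without a row in a condition's table was read as 0.

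The mouse was the replicate. The labels do not describe the mice further, so p-values speak to these mice only. The exact permutation p-value counts arrangements of the WT and i4F mice and does not estimate their spread. Shares, log2 ratios, log2 medians of UMIs and UMI shares were compared by an exact two-sided permutation test (scipy 1.17.1), with Benjamini-Hochberg adjustment over the 5 classes or the 6 pairs. The Clopper-Pearson intervals cover counting error only. Genes were tested on counts summed per mouse and class (at least 20 cells) with edgeR 4.0.16 (TMM, filterByExpr, quasi-likelihood test), fitted on 7 libraries in 3 groups, and called at an adjusted p under 0.05. The caerulein mice entered that fit only, so its gene p-values rest on the spread within all 3 groups, caerulein included. With the WT and i4F libraries alone, calls went from 3046 to 110 in stellate and from 9 to 0 in acinar cells. Ductal cells kept 1 call. CPM given with the gene tests are scaled by TMM, and the CPM of rtTA given apart from these tests are not. Joint clustering used Seurat 5.3.0 with sctransform 0.4.2, 20 components and resolutions of 0.2 and 0.5. A cluster was named from at least 3 fixed markers.

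The classes and the 17 marker lists were chosen with earlier results of these data known. Named genes were up to 6 examples of each list with the highest mean CPM in the class and, per class and direction, up to 3 genes with the largest changes among those called, if the groups did not overlap and the average log2 CPM reached 1. A gene that this rule names is not reported here. As alternatives, DESeq2 1.42.0 replaced edgeR, TMM or the filter was left out, and the fits were repeated with the 5 mice alone, a replicate block, each mouse left out, cells of at least 500 genes, other denominators and doublets removed. The matched names, the removal of the cells with highest Scrublet scores, the denominator without stellate cells, the squamous list and leaving out mice in the fit on cell numbers were added after seeing the data.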

Additional observations from a re-analysis of the deposited data

How the results depend on the processing

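Of the differences in share, 96 of 109 alternative values kept their direction and their side of the threshold, as did 62 of 66 for the ratios, 59 of 60 for depth and all 50 for UMI shares, but the exact test could pass none of them. That every i4F mouse lay below both WT mice was lost for ductal cells without acinar cells, in cells of at least 500 genes and after automatic doublet removal, and for endocrine cells without acinar cells. Leaving out 1 mouse at a time gave share differences from -3.85 to 13.1 points for acinar, -11.6 to -4.4 for ductal, -2.10 to -1.29 for endocrine, 8.60 to 34.1 for stellate and -17.4 to -11.8 for endothelial cells. The acinar sign turned without i4F 3, and with all cells as denominator the acinar and stellate differences turned to -2.49 and -1.56 points. Without stellate cells in the denominator the acinar difference kept its sign, with every i4F mouse above both WT mice. The log2 ratio of acinar to stellate cells ran from -1.38 to 0.43 (0.16 without WT 1, 0.43 without i4F 1) and was 0.97 in cells of at least 500 genes, that of ductal to endothelial cells from -0.025 (without WT 2) to 0.41, and endothelial depth from -0.90 to 0.41 (without WT 2).

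An edgeR fit on the cell numbers of all 5 mice called no class, with adjusted p from 0.161 to 0.542. Without i4F 3, a choice made after seeing the data, it called ductal (-1.68), endocrine (-1.96), endothelial (-1.62, adjusted p = 0.00422 for each) and stellate cells (0.96, adjusted p = 0.0452), while acinar cells turned to -0.34. The values without the other mice lay on the side of the full fit.

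Whether the replicate numbers pair the mice is not known. Correlations of deviations from the group mean between same-numbered mice ran from -0.135 to 0.022. They cannot decide the question, since the deviations of the WT mice from their own mean are equal and opposite by construction. i4F 3 has no partner, so that a replicate block sets it aside. With the block the acinar difference was -3.85 points, the fit on cell numbers gave -0.39 for acinar and called ductal (-1.64), endocrine (-1.95) and endothelial cells (-1.68), and the genes called were 8314 in pooled non-immune, 3294 in acinar, 2232 in ductal, 121 in endocrine, 6506 in stellate and 809 in endothelial cells.

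With 1 library left out, gene calls ran from 0 to 9522 in pooled non-immune, 0 to 3629 in acinar, 0 to 2966 in ductal, 6 to 184 in endocrine, 11 to 7672 in stellate and 9 to 1223 in endothelial cells, always highest without i4F 3. DESeq2 called 3110, 892, 373, 79 and 292 in pooled non-immune, acinar, ductal, endocrine and endothelial cells. With no filter on low counts these were 1486, 2004, 1311, 277 and 882, with 4942 in stellate cells. Without TMM there were 3 in acinar and 110 in endothelial cells, and with the WT and i4F libraries alone 0 in acinar, 4 in endocrine, 15 in endothelial and 110 in stellate cells. Cells of at least 500 genes gave 57 in acinar cells. Automatic doublet removal gave 1 in pooled and 1 in acinar cells, and removal of the highest scores 1 in pooled, 0 in acinar, 2 in ductal and 14 in endocrine cells. Matched names left 18 in endothelial cells and turned Myh11 (1.49) and Rgs5 (1.06) in stellate and Ccl21a (-1.18) and Lyve1 (-0.058) in endothelial cells, as the names moved those cells between classes. Otherwise the cause was not tested. Endocrine sums rest on as few as 33 cells and had the fewest genes tested (3437).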

Other observations

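UMIs of rtTA, which stands at Rosa26 apart from the reprogramming factors, differed in level between the classes. Among ductal, endothelial, acinar, endocrine and stellate cells of i4F mice, rtTA ranged from 23.2 CPM (acinar, i4F 3) to 101 CPM (ductal, i4F 3). It was highest in ductal cells in all 3 i4F mice, with 61.1, 90.0 and 101 CPM. These CPM are not scaled by TMM, unlike those given with the gene tests. Pou5f1 had 26, 142 and 0 UMIs in the acinar and 108, 110 and 0 UMIs in the stellate cells of i4F 1, 2 and 3, and 0 in their ductal and endothelial cells, where WT ductal cells had 9 and 1. Sox2 had 12, 34 and 0 UMIs in all non-immune cells of the i4F mice. The 3′ reads of Pou5f1 and Sox2 may miss cassette transcripts, so these counts do not give the induction of the cassette.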
